A study of Homo sapiens with 54 samples.

Results

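The aryl hydrocarbon receptor, its partner and 5 of its target genes were followed in A549 cells across the 18 groups of this RNA-seq series. The 7 gene symbols were AHR, ARNT, CYP1A1, CYP1B1, TIPARP, ALDH3A1 and AHRR, and 8 of the 58870 rows of the expression table carried one of them, because AHRR had 2 rows. All 8 rows were among the 16836 that passed the filter on low counts. CYP1A1 held only 3 to 10 counts in the 6 vehicle libraries, so it passed the filter through treated groups in which it was higher, and a count of calls that includes it is no support for a difference. The symbols were chosen by name, but with earlier results of these libraries known, and they were selected on the comparison of CP2 with CP14 and CP18 by dose. Their values against vehicle and between compounds are therefore given as levels, log2 fold changes and 95% intervals, without a test. The effect of the USP18 vector in vehicle cells was not named in that choice. It was tested, but on the same libraries and with earlier results known, so its p-values are not independent of the choice. The difference between the vectors in the response to a compound is built from the values against vehicle that the choice used. Its p-values are therefore descriptions and no support for a difference.

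A549 is an established line of human lung adenocarcinoma cells. The cells carried an empty vector or a vector that overexpresses USP18, a protease that removes the ubiquitin-like protein ISG15 from its targets, and each vector stood for 1 engineered population. For 48 h they received DMSO as vehicle or 1 of 3 compounds known here by code names only: CP2 at 2 or 5 µM, CP14 at 1, 2.5 or 5 µM, or CP18 at 1, 2.5 or 5 µM. Each of the 9 treatments was given to both vectors, with 3 libraries per group and 54 in all. Nothing in the labels says that the 3 libraries of a group came from separate cultures, so the p-values measure the spread between these samples only, which may be technical. The libraries held 16673228 to 25609062 counts, with a median of 19701304. The labels name a stranded poly(A) kit while the study's methods describe removal of ribosomal RNA, and which of these was used is not known here. In bulk RNA, fewer cells that express a gene and less RNA per cell cannot be told apart.

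The aryl hydrocarbon receptor is a transcription factor that is kept in the cytosol by chaperones until a small aromatic ligand binds it, such as a dioxin, a combustion product or a breakdown product of tryptophan. It then moves to the nucleus, pairs with ARNT and binds a short DNA element upstream of its targets, among them the cytochromes P450 of family 1. TIPARP and AHRR are targets that act back on the receptor as repressors, and in lung epithelium the pathway is best known for its response to tobacco smoke and air pollutants.

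The element that the receptor and ARNT bind has the core GCGTG, and promoters of the members are shown here because the receptor is known to act on its targets through this core. RefSeq promoters (GRCh38.p14, from 250 bases before to 50 after a start) were matched for 5 of the 7 symbols, which gave 8 windows, and CYP1B1 and ALDH3A1 are named only. GCGTG or its reverse complement CACGC was found in 5 of the 8 windows. Over all 35116 RefSeq windows of this length the share with a match was 36.5%, and a match is a description of the letters, not a binding site. CYP1A1 (chr15:74725479-74725778, reverse strand) had 1 core, at position -57 from the start. TIPARP (chr3:156674340-156674639, forward strand) had 2 on the opposite strand, at -208 and -142, and its other 2 windows had none. The AHRR windows (chr5:321464-321763 and chr5:322360-322659, forward strand) had 1 at -30, and 2 at -247 and -42. AHR itself (chr7:17298402-17298701, forward strand) had 1 at 37, and the window of ARNT (chr1:150876550-150876849, reverse strand) had none. Cores are in capitals.
CYP1A1: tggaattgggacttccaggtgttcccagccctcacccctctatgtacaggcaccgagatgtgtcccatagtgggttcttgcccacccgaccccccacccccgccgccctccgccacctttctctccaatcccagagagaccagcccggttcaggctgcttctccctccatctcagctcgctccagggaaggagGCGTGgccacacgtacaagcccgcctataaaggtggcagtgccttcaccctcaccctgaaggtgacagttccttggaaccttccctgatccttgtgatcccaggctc
TIPARP: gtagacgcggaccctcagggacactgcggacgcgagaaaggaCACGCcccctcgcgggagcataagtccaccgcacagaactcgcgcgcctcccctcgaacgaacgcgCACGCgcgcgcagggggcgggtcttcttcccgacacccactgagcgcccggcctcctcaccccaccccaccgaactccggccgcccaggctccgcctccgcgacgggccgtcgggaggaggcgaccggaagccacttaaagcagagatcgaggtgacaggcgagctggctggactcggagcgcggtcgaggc
AHRR, first window: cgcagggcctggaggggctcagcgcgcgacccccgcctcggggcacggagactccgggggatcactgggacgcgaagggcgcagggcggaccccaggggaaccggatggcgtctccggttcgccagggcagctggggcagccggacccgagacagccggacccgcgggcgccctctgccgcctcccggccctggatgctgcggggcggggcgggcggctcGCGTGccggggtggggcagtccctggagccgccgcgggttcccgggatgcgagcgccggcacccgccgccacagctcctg
AHRR, next window: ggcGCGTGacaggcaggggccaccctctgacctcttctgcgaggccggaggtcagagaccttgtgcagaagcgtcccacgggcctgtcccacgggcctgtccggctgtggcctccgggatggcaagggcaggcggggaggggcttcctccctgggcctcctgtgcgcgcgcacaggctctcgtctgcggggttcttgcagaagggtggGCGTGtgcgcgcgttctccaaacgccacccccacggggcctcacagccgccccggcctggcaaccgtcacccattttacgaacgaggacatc
AHR: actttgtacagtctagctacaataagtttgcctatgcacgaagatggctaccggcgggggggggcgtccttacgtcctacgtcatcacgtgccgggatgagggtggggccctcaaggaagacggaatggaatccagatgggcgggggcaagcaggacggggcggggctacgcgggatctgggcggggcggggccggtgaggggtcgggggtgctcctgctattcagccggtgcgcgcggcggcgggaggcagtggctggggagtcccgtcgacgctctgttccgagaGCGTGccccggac

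The overexpressed gene was read first, as a check of the labels. Levels are in CPM, a gene's counts divided by the scaled size of its library. With vehicle, USP18 was at 10.6, 10.7 and 11.1 CPM in empty vector cells and at 1302, 1292 and 1328 CPM in USP18 cells. Across treatments it stayed between 8.77 and 12.3 CPM in the 27 empty vector libraries and between 947 and 2115 CPM in the 27 USP18 libraries, so every library matched its labelled vector. Within USP18 cells it was highest with 5 µM CP14, at 1965, 2115 and 2062 CPM, and lowest with 1 µM CP18, at 1004, 992 and 947 CPM. The part of the USP18 level itself in any difference between vectors given here was not tested.

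The cell type was checked against marker genes. The keratins KRT8 (1264 to 6322 CPM) and KRT18 (1658 to 5207 CPM) were abundant in all 54 libraries, while the other epithelial markers were low, KRT19 at 3.65 to 50.9 CPM and EPCAM at 1.33 to 14.8 CPM. With vehicle KRT19 had a mean of 4.35 CPM in empty vector cells against 26.8 in USP18 cells, and EPCAM 12.3 against 2.81. The summed level of the 4 markers was 11210 against 7208 CPM with vehicle and 4407 against 3100 CPM with 5 µM CP14. KRT8 and KRT18 make up nearly all of this sum. In USP18 cells KRT19 alone of the 4 was higher with 5 µM CP14, at a mean of 49.9 CPM against 26.8 with vehicle. The alveolar type 2 markers were absent or nearly so: SFTPB was at 0 in 54 libraries, and SFTPC and NKX2-1 did not pass 0.36 and 0.742 CPM. Of the markers of other cell types, CD3E was at 0 in 54 libraries, and PTPRC, PECAM1, CDH5, COL1A2 and DCN did not pass 0.498 CPM in any. COL1A1 alone was above that range, and with it the summed level of the 3 fibroblast markers was 10.8 to 13.8 CPM in vehicle libraries of empty vector cells and 4.63 to 4.83 CPM in those of USP18 cells. The part of these shifts in the differences between vectors, and with 5 µM CP14, was not tested.

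AHR (ENSG00000106546.14, chr7:16916359-17346152, forward strand), the receptor itself, was higher in USP18 cells than in empty vector cells. With vehicle it was at 96.1, 97.6 and 89.2 CPM in cells with the empty vector and 132, 136 and 139 CPM in USP18 cells, and the 3 libraries of USP18 cells were all above the 3 of empty vector cells. The log2 fold change was 0.53 (SE 0.061, adjusted p = 3.9e-10) by the edgeR quasi-likelihood test over all genes. With 2 µM CP2 AHR was at 84.7, 82.3 and 96.4 CPM in cells with the empty vector and 119, 115 and 126 CPM in USP18 cells. With 5 µM CP2 it was at 70.6, 74.4 and 71.5 and 90.8, 89.3 and 89 CPM in the same order. At 5 µM each library of either vector was below every vehicle library of that vector, by a log2 fold change of -0.38 (-0.51 to -0.25) and -0.60 (-0.72 to -0.47), where the brackets hold the 95% interval.

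CP14 gave 91.8, 85.4 and 88.1 CPM of AHR at 1 µM, 80, 82.3 and 88.4 at 2.5 µM and 68.5, 67.4 and 72 at 5 µM in empty vector cells. In USP18 cells it gave 97.4, 99.6 and 108, then 87.6, 97 and 101, then 109.9, 119.5 and 103 CPM. In empty vector cells the 5 µM libraries lay below the others and the 1 and 2.5 µM groups overlapped, while in USP18 cells the 5 µM libraries lay above the 2.5 µM libraries. CP18 gave 89, 88.8 and 87.7, then 78.1, 77.1 and 78.9, then 75.3, 71.5 and 60.7 CPM in empty vector cells, and the 3 dose groups did not overlap. In USP18 cells CP18 gave 109, 101 and 94.3, then 101, 95.3 and 104, then 83.3, 96.9 and 98.8 CPM, and neighbouring doses overlapped. All 24 libraries of treated USP18 cells were below the lowest vehicle library of USP18 cells. They were all set against the same 3 vehicle libraries, and whether these were themselves high was not tested.

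At 5 µM, the dose that all 3 compounds share, AHR against vehicle was -0.44 with CP14 and -0.45 with CP18 on the log2 scale in empty vector cells, while USP18 cells had -0.29 and -0.55. Compared directly, CP2 differed from CP14 by 0.06 (-0.08 to 0.19) in empty vector cells and by -0.30 (-0.43 to -0.18) in USP18 cells. CP2 differed from CP18 by 0.06 (-0.07 to 0.20) and -0.05 (-0.18 to 0.08), and both intervals held 0. Among the 18 group means AHR ran from 69.2 CPM with 5 µM CP18 in empty vector cells to 136 CPM with vehicle in USP18 cells, a ratio of 1.96. The ranges of 13 of the 17 neighbouring pairs in that order overlapped, and vehicle-treated USP18 cells stood apart at the top. Since each compound group was set against the same 3 vehicle libraries of its vector, the values of the compounds and doses against vehicle are not independent of each other, here and for the genes that follow.

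ARNT (ENSG00000143437.21, chr1:150809713-150876708, reverse strand), the partner without which the receptor does not bind DNA, had group means that differed by a ratio of 1.34 at most. It was at 52.5, 50.7 and 54 CPM with vehicle in cells with the empty vector and 48.5, 50.3 and 51 CPM in USP18 cells, and the groups overlapped. The log2 fold change between the vectors was -0.07 (SE 0.051, adjusted p = 0.25) by edgeR, and the test did not pass. In 51 of the 54 libraries ARNT lay between 43.6 and 55.2 CPM. The other 3 were those of USP18 cells with 5 µM CP14, at 60.1, 62.8 and 61 CPM. Against vehicle that group differed by 0.30 (0.19 to 0.40), and 5 µM CP14 in empty vector cells by -0.01 (-0.11 to 0.09). For 5 µM CP2 the values were -0.12 (-0.22 to -0.02) in empty vector and -0.08 (-0.18 to 0.03) in USP18 cells. CP2 against CP14 at 5 µM gave -0.11 (-0.21 to -0.00) and -0.37 (-0.48 to -0.27) in the same order, and CP2 against CP18 gave 0.00 (-0.10 to 0.11) and 0.01 (-0.10 to 0.11).

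**Figure D1:**
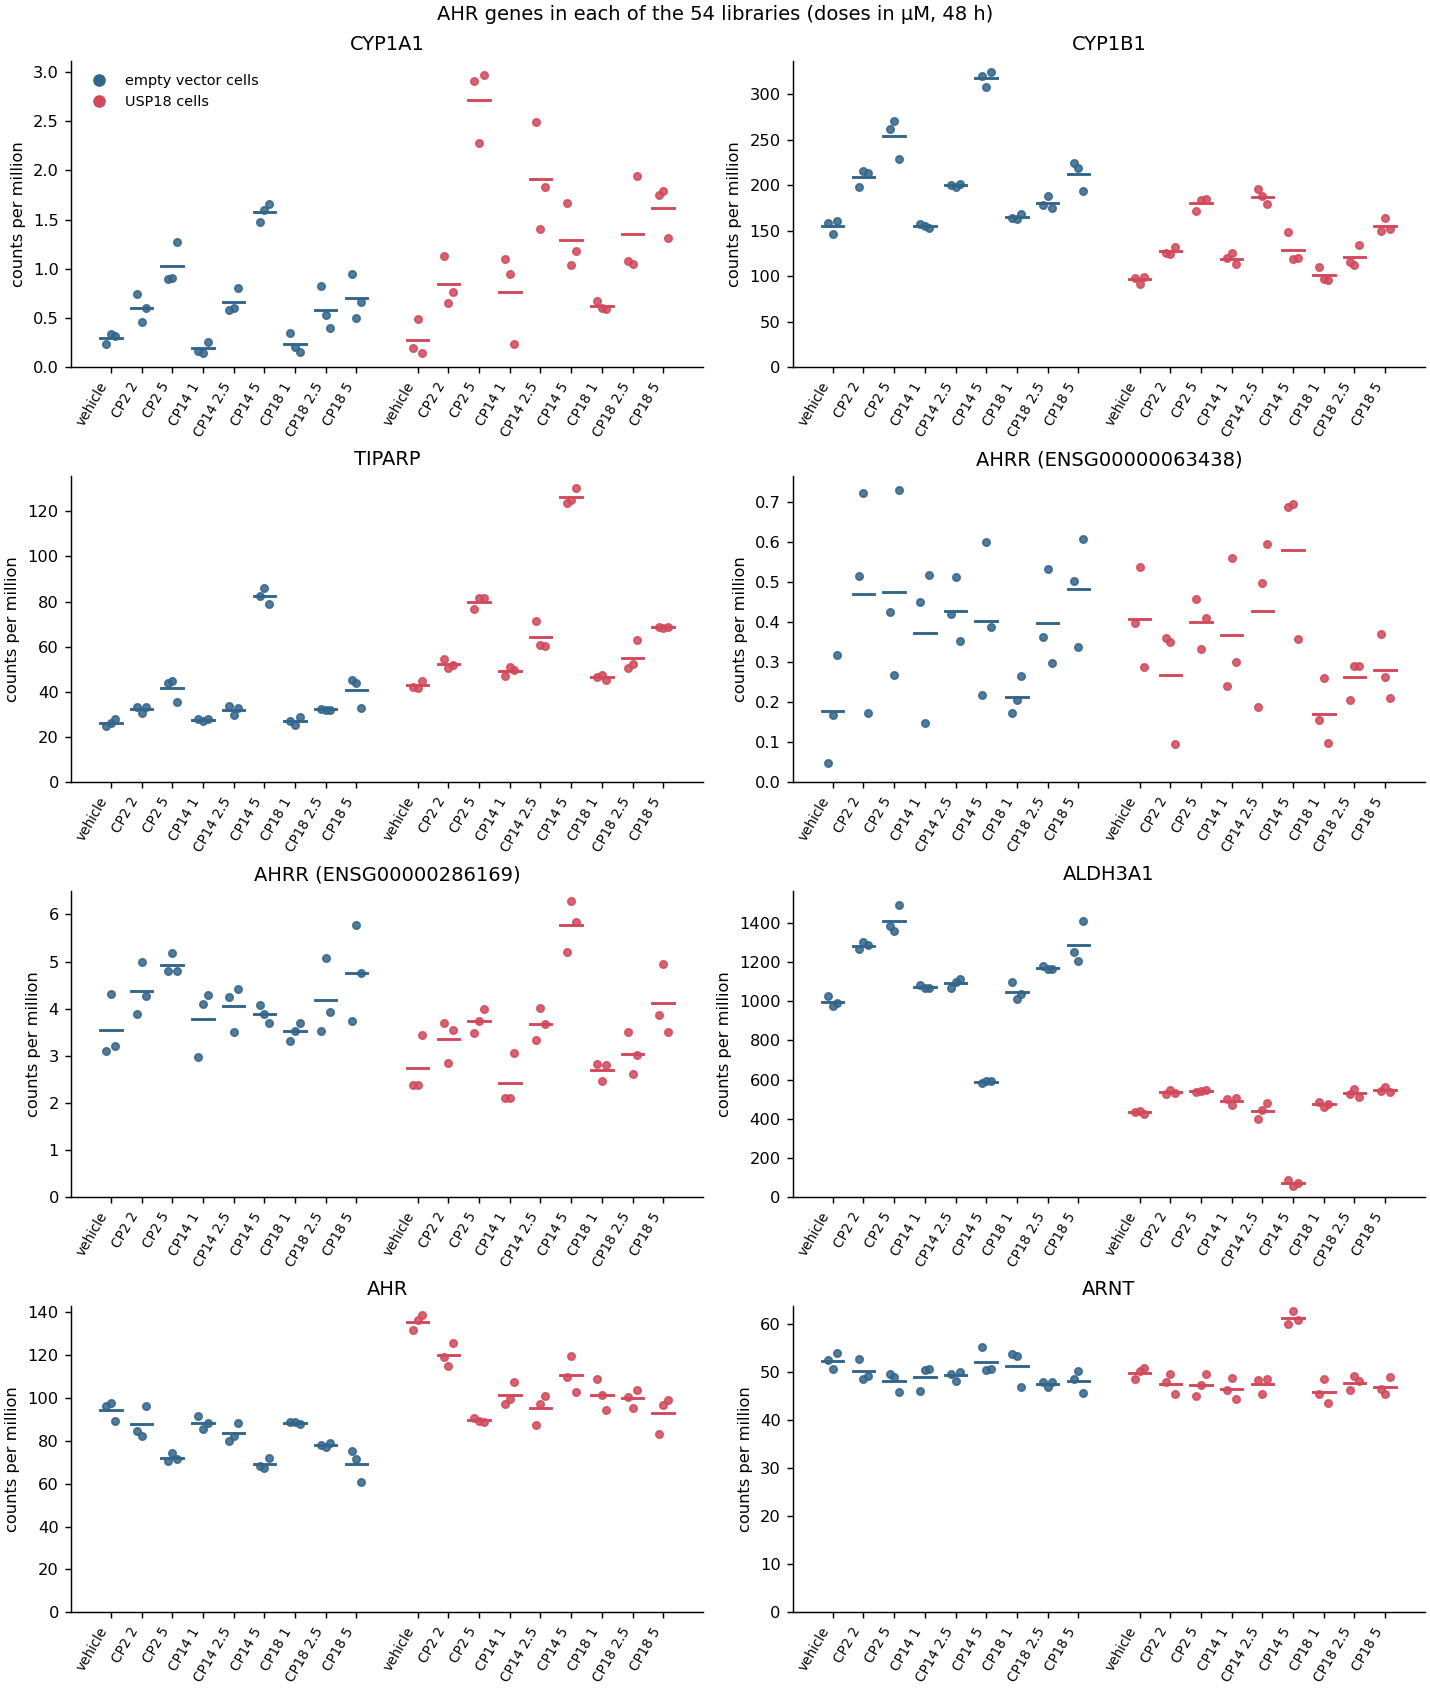
Level of each gene row in CPM (vertical axis, from 0) in all 54 libraries, by treatment and dose in µM (horizontal axis); dots are single libraries, bars are means of 3, blue is empty vector and red is USP18. CYP1A1 reached its highest mean, 2.72, with 5 µM CP2 in USP18 cells, while ALDH3A1 had its lowest, 72.8, with 5 µM CP14 in USP18 cells.

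CYP1A1 (ENSG00000140465.14, chr15:74719542-74725536, reverse strand) encodes the cytochrome P450 that serves as the classical readout of the receptor, and it was scarce in these cells, with 3 to 70 counts in a library. With vehicle it was at 0.235, 0.337 and 0.318 CPM in empty vector cells and at 0.199, 0.488 and 0.143 CPM in USP18 cells. These 6 libraries overlapped, and the log2 fold change between the vectors was -0.10 (95% interval -1.08 to 0.89, adjusted p = 0.89 by edgeR), an interval that does not exclude a difference of 1 log2 unit. With 2 µM CP2 CYP1A1 was at 0.748, 0.464 and 0.603 CPM in cells with the empty vector and 1.13, 0.648 and 0.767 CPM in USP18 cells. With 5 µM CP2 it was at 0.892, 0.908 and 1.28 CPM in cells with the empty vector and 2.91, 2.28 and 2.97 CPM in USP18 cells. All 12 libraries with CP2 were above every vehicle library of their vector, and at 5 µM the 3 USP18 libraries were all above the 3 empty vector libraries.

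CP14 at 1 µM gave 0.169, 0.148 and 0.258 CPM of CYP1A1 in cells with the empty vector and 1.102, 0.946 and 0.24 CPM in USP18 cells. Both groups overlapped with vehicle, in USP18 cells through 1 low library of 4 counts. At 2.5 µM CP14 the values were 0.578, 0.598 and 0.804 CPM in cells with the empty vector and 2.495, 1.4 and 1.84 CPM in USP18 cells. At 5 µM CP14 they were 1.47, 1.6 and 1.66 CPM in cells with the empty vector and 1.67, 1.04 and 1.177 CPM in USP18 cells. All 12 libraries at 2.5 and 5 µM were above their vehicle libraries, and the vectors overlapped at 5 µM but not at 2.5 µM. CP18 at 1 µM gave 0.343, 0.205 and 0.158 CPM in empty vector cells, overlapping with vehicle, and 0.67, 0.607 and 0.589 CPM in USP18 cells, above it. CP18 gave 0.83, 0.532 and 0.397 CPM at 2.5 µM and 0.948, 0.505 and 0.658 CPM at 5 µM in empty vector cells. In USP18 cells CP18 gave 1.08, 1.04 and 1.94 CPM at 2.5 µM and 1.75, 1.79 and 1.31 CPM at 5 µM. In either vector the 2.5 and 5 µM groups of CP18 overlapped with each other and lay above vehicle.

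As log2 fold changes against vehicle, CYP1A1 with CP2 was 1.02 (0.17 to 1.88) at 2 µM and 1.76 (0.95 to 2.57) at 5 µM in empty vector cells. In USP18 cells CP2 gave 1.59 (0.75 to 2.43) at 2 µM and 3.27 (2.52 to 4.02) at 5 µM. CP14 in empty vector cells gave -0.61 (-1.68 to 0.46) at 1 µM, 1.14 (0.29 to 1.99) at 2.5 µM and 2.39 (1.62 to 3.16) at 5 µM, higher with each dose. In USP18 cells CP14 gave 1.49 (0.64 to 2.33), 2.76 (1.99 to 3.53) and 2.20 (1.41 to 3.00), highest at 2.5 µM. CP18 in empty vector cells gave -0.34 (-1.37 to 0.70), 0.97 (0.09 to 1.85) and 1.23 (0.38 to 2.09) at 1, 2.5 and 5 µM. In USP18 cells CP18 gave 1.15 (0.28 to 2.02), 2.29 (1.5 to 3.08) and 2.52 (1.74 to 3.31). The lower doses differ, so 2 µM CP2 stands beside 2.5 µM CP14 and CP18 without a comparison.

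At 5 µM CP2 and CP14 were compared directly, and the difference in CYP1A1 had opposite signs in the 2 vectors: it was -0.63 (-1.29 to 0.03) in empty vector cells, where the 3 CP2 libraries were below the 3 CP14 libraries, and 1.06 (0.46 to 1.67) in USP18 cells, where they were above them. CP2 against CP18 gave 0.53 (-0.20 to 1.25) in empty vector cells, with overlapping libraries, and 0.74 (0.15 to 1.34) in USP18 cells, with every CP2 library above every CP18 library. These were the 2 compound pairs compared, in 2 vectors. Whether the 2 vectors differ in the gap between CP2 and CP14 was not tested. In the order of the 18 group means, the lowest 4 were 1 µM CP14 and 1 µM CP18 in empty vector cells and the 2 vehicle groups, from 0.192 to 0.297 CPM. Their libraries were not apart from all the others, since vehicle-treated USP18 cells reached 0.488 CPM and the lowest library of 1 µM CP14 in USP18 cells was at 0.240 CPM. The other 14 means ran from 0.586 CPM with 2.5 µM CP18 in empty vector cells to 2.72 CPM with 5 µM CP2 in USP18 cells, and the libraries of each overlapped with those of its neighbour. The next below the top were 2.5 µM CP14 at 1.91 CPM and 5 µM CP18 at 1.62 CPM, both in USP18 cells. The highest mean was 14.2 times the lowest.

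**Figure D2:**
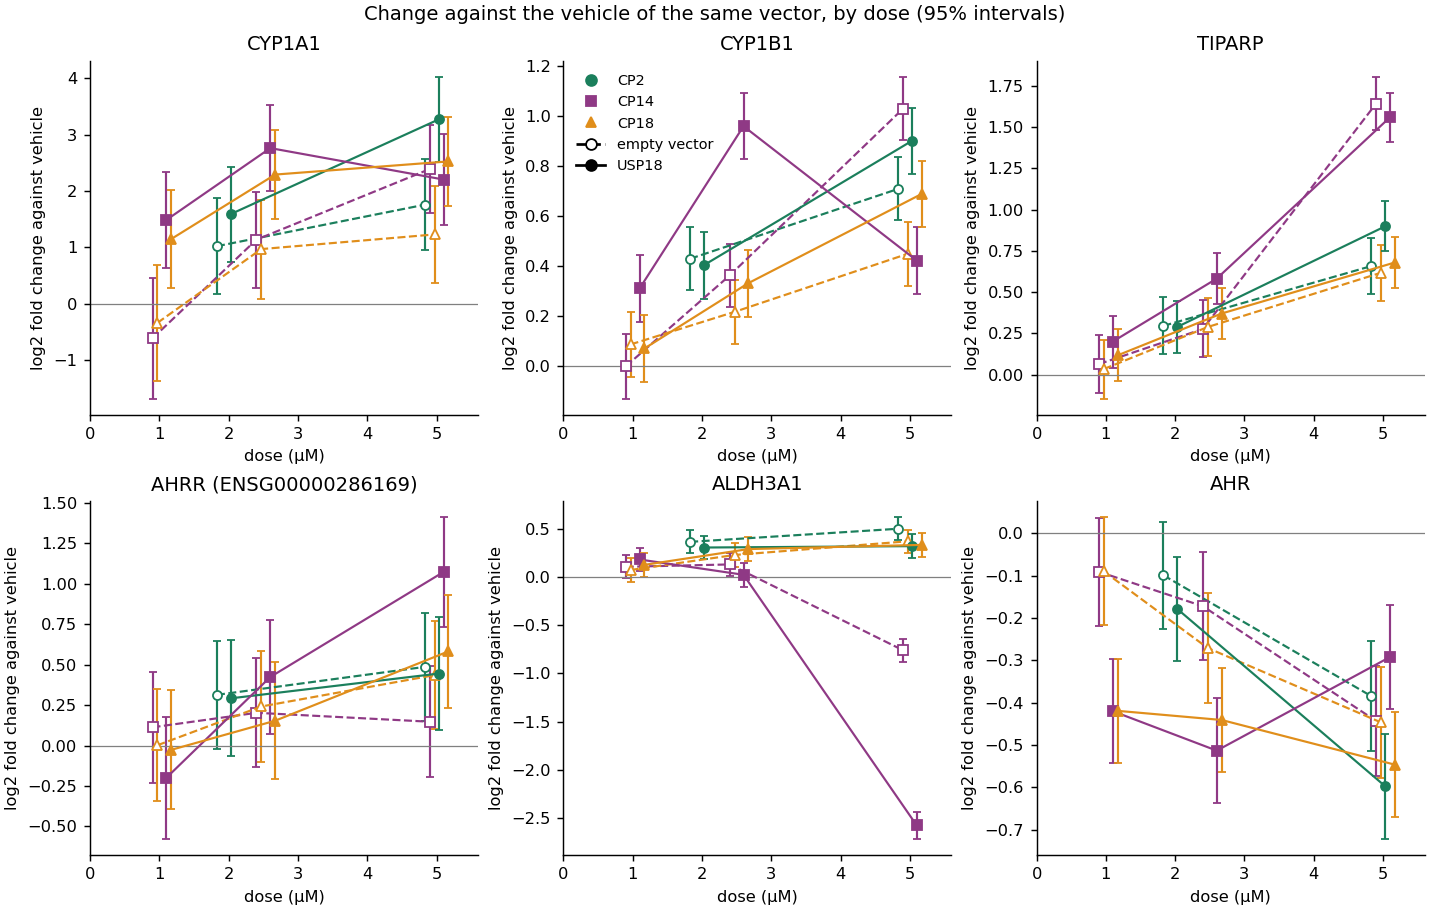
Log2 fold change against the vehicle of the same vector (vertical axis) by dose in µM (horizontal axis) for 6 gene rows; points are estimates from 3 against 3 libraries, bars are 95% intervals, open symbols with dashed lines are empty vector and filled symbols with solid lines are USP18. For CYP1A1 the CP14 line of USP18 cells was lower at 5 µM (2.20) than at 2.5 µM (2.76), while CP2 reached 3.27; ALDH3A1 stood at -2.58 with 5 µM CP14 in USP18 cells.

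CYP1B1 (ENSG00000138061.12, chr2:38066973-38109902, reverse strand), a related cytochrome P450 that hydroxylates oestradiol and aromatic carcinogens, was far above its detection limit, at 1881 to 6166 counts in a library. With vehicle it was at 158, 147 and 160.5 CPM in cells with the empty vector and 97.7, 91.8 and 99.6 CPM in USP18 cells, and all 3 USP18 libraries were lower. The log2 fold change between the vectors was -0.69 (SE 0.066, adjusted p = 1.2e-12) by edgeR. CP2 gave 198, 215 and 214 CPM at 2 µM and 262, 270.3 and 229 CPM at 5 µM in empty vector cells. In USP18 cells CP2 gave 126, 125 and 132 CPM at 2 µM and 172, 184 and 185 CPM at 5 µM. In both vectors the vehicle, 2 µM and 5 µM groups did not overlap, and each higher dose lay higher.

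CP14 gave 157, 155 and 153 CPM of CYP1B1 at 1 µM in empty vector cells, 199.7, 198 and 201 at 2.5 µM and 320.0, 308 and 324 at 5 µM. In USP18 cells it gave 119.6, 125 and 113, then 195, 188 and 179, then 148, 119 and 119.5 CPM. The 5 µM libraries of empty vector cells were the 3 highest of all 54, whereas in USP18 cells the 5 µM libraries lay below all 3 of the 2.5 µM group. CP18 gave 164, 162 and 168, then 178, 188 and 175, then 224, 219 and 194 CPM in empty vector cells. In USP18 cells CP18 gave 109.9, 97.3 and 96.2, then 116, 112 and 135, then 150.1, 164 and 152 CPM. In both vectors the 3 dose groups of CP18 did not overlap and the higher dose lay higher.

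At 5 µM the log2 fold changes of CYP1B1 against vehicle in empty vector cells were 0.71 (0.58 to 0.84) with CP2, 1.03 (0.90 to 1.16) with CP14 and 0.45 (0.32 to 0.58) with CP18. In USP18 cells they were 0.90 (0.77 to 1.03), 0.42 (0.29 to 0.56) and 0.69 (0.56 to 0.82). Directly, CP2 differed from CP14 by -0.32 (-0.45 to -0.20) in empty vector cells and by 0.48 (0.35 to 0.61) in USP18 cells, with opposite signs. CP2 was above CP18 in both vectors, by 0.26 (0.13 to 0.39) and 0.21 (0.09 to 0.34), and in each the 3 libraries of CP2 were all above the 3 of CP18. The 18 group means ran from 96.3 CPM with vehicle in USP18 cells to 317 CPM with 5 µM CP14 in empty vector cells, a ratio of 3.3, and 11 of 17 neighbouring pairs overlapped. The upper end was set by 5 µM CP14 and, next to it, 5 µM CP2 in empty vector cells, each without overlap with its neighbour. An antisense gene, CYP1B1-AS1, held 2 to 21 counts in a library, and whether strand was used in the counting is not stated in the sources used here.

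TIPARP (ENSG00000163659.13, chr3:156673235-156706770, forward strand) encodes a mono-ADP-ribosyltransferase that modifies the receptor and limits its activity. With vehicle it was at 24.9, 26.4 and 27.9 CPM in cells with the empty vector and 42, 41.8 and 44.9 CPM in USP18 cells, and all 3 USP18 libraries were higher. The log2 fold change between the vectors was 0.70 (SE 0.083, adjusted p = 6.9e-10) by edgeR. CP2 gave 33.2, 30.8 and 33.4 CPM at 2 µM and 43.9, 45 and 35.7 CPM at 5 µM in empty vector cells. In USP18 cells CP2 gave 54.7, 50.6 and 52.1 CPM at 2 µM and 76.9, 81.7 and 81.4 CPM at 5 µM. The levels were higher at 5 than at 2 µM in every library of both vectors.

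CP14 gave 27.9, 27.1 and 28 CPM of TIPARP at 1 µM in empty vector cells, 33.8, 29.9 and 32.7 at 2.5 µM and 82.6, 86 and 78.8 at 5 µM. In USP18 cells it gave 47, 51.2 and 49.7, then 71.6, 60.7 and 60.3, then 124, 125 and 130.3 CPM. The step from 2.5 to 5 µM was the widest in either vector, and the 3 doses did not overlap. CP18 gave 27, 25.2 and 29.1, then 32.6, 32.2 and 32.1, then 45.4, 43.8 and 32.8 CPM in empty vector cells. In USP18 cells CP18 gave 46.7, 47.4 and 45.5, then 50.5, 52.4 and 62.9, then 68.8, 68.4 and 68.9 CPM. Again the doses did not overlap in either vector.

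At 5 µM the log2 fold changes of TIPARP against vehicle in empty vector cells were 0.66 (0.49 to 0.83) with CP2, 1.64 (1.48 to 1.80) with CP14 and 0.62 (0.45 to 0.79) with CP18. In USP18 cells they were 0.90 (0.75 to 1.05), 1.56 (1.41 to 1.71) and 0.68 (0.53 to 0.83). CP2 was below CP14 in both vectors, by -0.98 (-1.14 to -0.83) and -0.66 (-0.80 to -0.52). Against CP18 it differed by 0.04 (-0.12 to 0.20) in empty vector cells, with overlapping libraries, and by 0.22 (0.07 to 0.36) in USP18 cells, without overlap. The group means ran from 26.4 CPM with vehicle in empty vector cells to 126 CPM with 5 µM CP14 in USP18 cells, a ratio of 4.78, and 13 of 17 neighbouring pairs overlapped. TIPARP-AS1, on the other strand, held 8 to 40 counts in a library.

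ALDH3A1 (ENSG00000108602.18, chr17:19737984-19748943, reverse strand), an aldehyde dehydrogenase that clears reactive aldehydes, was lower in USP18 cells. With vehicle it was at 1026, 978 and 990.4 CPM in cells with the empty vector and 437, 442 and 424 CPM in USP18 cells. All 3 USP18 libraries were lower, and the log2 fold change was -1.20 (SE 0.061, adjusted p = 1.7e-22) by edgeR. CP2 gave 1265, 1301 and 1286 CPM at 2 µM and 1384, 1359 and 1490.0 CPM at 5 µM in empty vector cells. In USP18 cells CP2 gave 526, 549.2 and 534 CPM at 2 µM and 537, 543 and 545 CPM at 5 µM. Each CP2 library was above every vehicle library of its vector, and in USP18 cells the 2 doses overlapped.

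CP14 gave 1084, 1068 and 1069 CPM of ALDH3A1 at 1 µM in empty vector cells, 1066, 1097 and 1112 at 2.5 µM and 582, 595 and 592 at 5 µM. In USP18 cells it gave 502, 470.0 and 505, then 397, 444 and 482, then 86.3, 58 and 74.2 CPM. The 5 µM libraries were below vehicle in both vectors, and those of USP18 cells were the lowest 3 of all 54. CP18 gave 1098, 1014 and 1036, then 1180.0, 1163 and 1163, then 1251, 1206 and 1411 CPM in empty vector cells. In USP18 cells CP18 gave 486, 459 and 476, then 529, 549.9 and 513, then 540.0, 564 and 536 CPM. With 2.5 and 5 µM CP18 all libraries were above vehicle.

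At 5 µM the log2 fold changes of ALDH3A1 against vehicle in empty vector cells were 0.50 (0.38 to 0.62) with CP2, -0.76 (-0.88 to -0.64) with CP14 and 0.37 (0.25 to 0.49) with CP18. In USP18 cells they were 0.32 (0.20 to 0.44), -2.58 (-2.71 to -2.44) and 0.33 (0.21 to 0.45). CP2 was above CP14 by 1.26 (1.14 to 1.38) in empty vector cells and by 2.90 (2.76 to 3.03) in USP18 cells, and no library of CP14 reached those of CP2. CP2 against CP18 was 0.13 (0.01 to 0.25) and -0.01 (-0.13 to 0.11), with overlap in both vectors. The group means ran from 72.8 CPM to 1411 CPM with 5 µM CP2 in empty vector cells, a ratio of 19.4, and 11 of 17 neighbouring pairs overlapped. The 9 USP18 groups held the 9 lowest places, below 5 µM CP14 in empty vector cells at 589.6 CPM.

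AHRR, the receptor's own repressor, which competes with it for ARNT, had 2 rows. The row of ENSG00000063438.17 (chr5:321714-438291, forward strand) held 1.48 to 14.36 counts in a library and was near the limit of detection. The row of ENSG00000286169.1 held 43.64 to 127.28 counts and has no entry in the gene annotation used here for positions (GENCODE 44). The 2 rows carry 1 symbol and may share reads, so their split is uncertain. In the row of ENSG00000286169.1 the vehicle libraries were at 3.11, 4.32 and 3.22 CPM in cells with the empty vector and 2.39, 2.39 and 3.44 CPM in USP18 cells, with overlap. The log2 fold change between the vectors was -0.36 (SE 0.18, adjusted p = 0.087), and that of the row of ENSG00000063438.17 was 1.12 (SE 0.56, adjusted p = 0.095), both by edgeR. Neither passed the test. Without replicate 3 of vehicle-treated empty vector cells the row of ENSG00000063438.17 did, at 1.92 with an adjusted p of 0.026 by edgeR. With so few counts, that row is no support for a difference. At 5 µM of CP2 the row of ENSG00000286169.1 was at 4.8, 5.18 and 4.8 CPM in cells with the empty vector and 3.49, 3.75 and 4.00 CPM in USP18 cells, above vehicle in all 6 libraries.

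With 5 µM CP14 the same AHRR row was at 4.09, 3.9 and 3.7 CPM in empty vector cells, overlapping with vehicle, and 5.21, 6.29 and 5.84 CPM in USP18 cells, above every vehicle library. With 5 µM CP18 it was at 3.74, 5.77 and 4.76 CPM and 3.87, 4.96 and 3.52 CPM in the same order. Against vehicle the log2 fold changes at 5 µM in empty vector cells were 0.49 (0.15 to 0.82) with CP2, 0.15 (-0.20 to 0.49) with CP14 and 0.43 (0.10 to 0.77) with CP18. In USP18 cells they were 0.44 (0.09 to 0.80), 1.07 (0.73 to 1.41) and 0.58 (0.23 to 0.93). CP2 against CP14 was 0.34 (0.01 to 0.67) in cells with the empty vector and -0.63 (-0.95 to -0.30) in USP18 cells, and CP2 against CP18 was 0.05 (-0.28 to 0.38) and -0.14 (-0.47 to 0.20). In the order of group means 16 of 17 neighbouring pairs overlapped, and the exception was the top group, 5 µM CP14 in USP18 cells at 5.78 CPM, although 1 library of 5 µM CP18 in empty vector cells reached into its range. In the row of ENSG00000063438.17 the 54 libraries ran from 0.0471 to 0.73 CPM, and all 17 neighbouring pairs of groups overlapped.

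Calls were counted over the 8 rows at an adjusted p under 0.05 and an absolute log2 fold change over 1, beside the percentage of all 16836 tested genes called in the same comparison. Nothing is read from these counts, since the choice of the genes used these contrasts. With 2 µM CP2, 0 of 8 rows were called in empty vector cells (0.0178% of all genes) and 0 of 8 in USP18 cells (0.0119%), and at an unadjusted p under 0.05 edgeR had 5 and 5 rows. With 5 µM CP2, 1 of 8 was called in each vector, CYP1A1 upwards, beside 0.386% of all genes in cells with the empty vector and 0.814% in USP18 cells. With 1 µM CP14 the counts were 0 of 8 in empty vector cells (0.0356%; 0 unadjusted) and 1 of 8, CYP1A1, in USP18 cells (0.374%). With 2.5 µM CP14 they were 0 of 8 (0.517%; 6 unadjusted) and 1 of 8, CYP1A1 (2.15%). With 5 µM CP14 they were 3 of 8 in empty vector cells, CYP1A1, CYP1B1 and TIPARP upwards, beside 13.9%, and 4 of 8 in USP18 cells, CYP1A1, TIPARP and the AHRR row of ENSG00000286169.1 upwards and ALDH3A1 downwards, beside 17.7%. With 1 µM CP18, 0 of 8 were called in either vector, beside 0% and 0.261% of all genes, with 0 and 5 rows unadjusted. The first of these percentages was 0 genes by edgeR, with 1386 genes at an unadjusted p under 0.05, and 10 genes by DESeq2. With 2.5 µM CP18 the counts were 0 of 8 in empty vector cells (0.095%; 6 unadjusted) and 1 of 8, CYP1A1, in USP18 cells (0.273%). With 5 µM CP18 they were 1 of 8, CYP1A1, in each vector, beside 0.44% and 0.558%. Wherever edgeR called 0 of the 8 rows, DESeq2 called 0 as well, but over all 27 comparisons it gave CYP1A1 no adjusted p in 15, among them the interactions of 5 µM CP2 and CP18. The call of CYP1A1 with 1 µM CP14 in USP18 cells was lost in 4 of 6 fits that left out 1 library, and that with 5 µM CP18 in empty vector cells in 5 of 6.

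In the direct comparisons at 5 µM, CP2 against CP14 called 1 of 8 rows in empty vector cells, ALDH3A1, beside 12.2% of all genes, and 2 of 8 in USP18 cells, ALDH3A1 and CYP1A1, beside 17.5%. CP2 against CP18 called 0 of 8 in each vector, with 2 and 3 rows at an unadjusted p under 0.05, beside 0% in cells with the empty vector and 0% in USP18 cells. By edgeR, that pair had 0 genes called of all tested in either vector, 1568 and 1334 genes at an unadjusted p under 0.05, and by DESeq2 0 and 0 genes called. Without the fold limit edgeR had 11 and 14 genes, without the filter on low counts 70 and 59 calls, fitted with only the groups compared 1 and 14, and with 1 library left out up to 6 calls in empty vector cells. This count does not show that CP2 and CP18 act alike: the interval of their difference in CYP1A1 reached 1.25 in cells with the empty vector and 1.34 in USP18 cells. For the other 7 rows except the AHRR row of ENSG00000063438.17, the intervals of CP2 against CP18 stayed between -0.47 and 0.39 in both vectors.

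**Figure D3:**
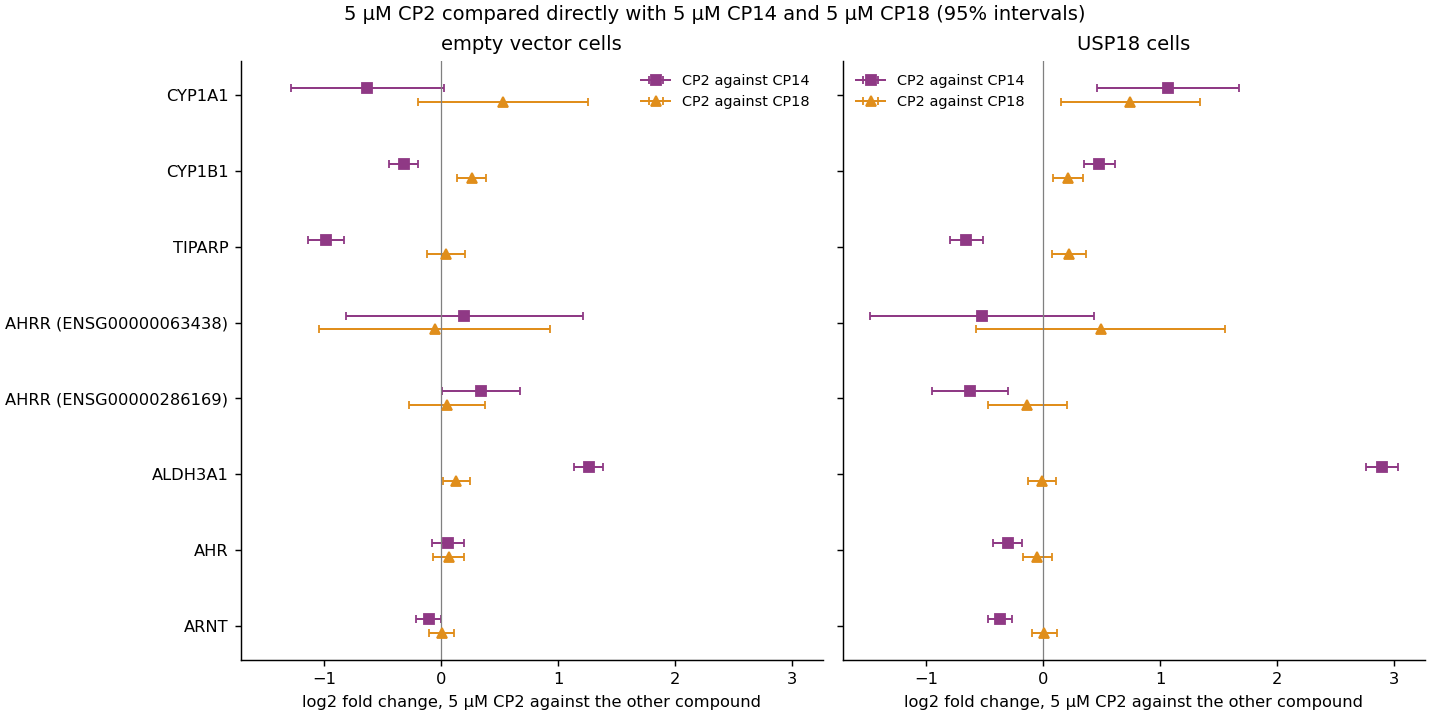
Log2 fold change of 5 µM CP2 against 5 µM CP14 (squares) and against 5 µM CP18 (triangles) for each gene row (vertical axis), in empty vector cells (left) and USP18 cells (right); bars are 95% intervals from 3 against 3 libraries. CYP1A1 and CYP1B1 lay on opposite sides of 0 in the 2 vectors for CP2 against CP14, at -0.63 and 1.06 for CYP1A1, while ALDH3A1 lay above 0 in both.

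The vector comparison and the interactions were tested for these genes, with the limit given at the start. Between the vectors with vehicle, 1 of 8 rows, ALDH3A1, passed both thresholds, beside 10.6% of all genes, and AHR, TIPARP and CYP1B1 passed the adjusted p with a fold change under the limit, which makes 4 of 8 at any size beside 8620 of all 16836 genes. In the USP18 cells AHR and TIPARP were higher and CYP1B1 and ALDH3A1 lower. The interaction is the difference between the response to a compound in USP18 cells and that in empty vector cells, tested by edgeR at an adjusted p under 0.05 without a limit on size. It is a difference of the values given above, from the same libraries. Its p-values are therefore not independent of the choice of the genes and are given as descriptions. For 2 µM CP2, 0 of 8 rows passed beside 0.00594% of all genes, with 1 row at an unadjusted p under 0.05 and 0 by DESeq2. For 5 µM CP2, 0 of 8 passed beside 0.843%, with 5 rows at an unadjusted p under 0.05 and 0 by DESeq2, which gave no adjusted p for 3 rows. The interaction of 5 µM CP2 in CYP1A1 was 1.51 (95% interval 0.33 to 2.69, adjusted p = 0.27) and did not pass over all genes. Since CYP1A1 passed the filter on low counts through treated groups, its intervals here and below are no support for a difference.

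For 5 µM CP14, 4 of 8 rows passed beside 26.4% of all genes. The p-values that follow are descriptions, since the choice of the genes used these libraries. The response of ALDH3A1 was more negative in USP18 cells, by an interaction of -1.82 (95% interval -1.997 to -1.64, adjusted p = 4.6e-21), and its 3 USP18 libraries at 5 µM lay at 58 to 86.3 CPM against a vehicle range of 424 to 442 CPM. The response of CYP1B1 was smaller in USP18 cells than in empty vector cells, with -0.61 (95% interval -0.79 to -0.43, adjusted p = 7e-07). ARNT had 0.31 (95% interval 0.16 to 0.45, adjusted p = 0.00083), from all 3 USP18 libraries above vehicle while those of empty vector cells overlapped with it. The AHRR row of ENSG00000286169.1 had 0.92 (95% interval 0.44 to 1.41, adjusted p = 0.0025), again with 3 of 3 USP18 libraries above vehicle. Of all tested genes, 68.9% were fully apart from vehicle in USP18 cells with 5 µM CP14, in either direction. In CYP1A1 the interaction of 5 µM CP14 was -0.18 (95% interval -1.38 to 1.01, adjusted p = 0.87) and in TIPARP -0.08 (95% interval -0.30 to 0.14, adjusted p = 0.64), and in AHR 0.15 (95% interval -0.03 to 0.33, adjusted p = 0.23), none of which passed. The USP18 transcript itself had an interaction of 0.83 with 5 µM CP14, and its part in these values was not tested.

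For 2.5 µM CP14, an interaction chosen after the levels of CYP1B1 at that dose had been seen, 2 of 8 rows were under the threshold beside 7.3% of all genes, 1 of them CYP1B1 itself, and without replicate 1 of USP18 cells with 2.5 µM CP14 the 1229 genes behind that share were 735. Its value is a description only, since it prompted the contrast: 0.60 (0.42 to 0.78), of the opposite sign to 5 µM. The response of AHR was more negative in USP18 cells, with -0.34 (95% interval -0.52 to -0.16, adjusted p = 0.0099), and did not pass without replicate 1 of USP18 cells with 2.5 µM CP14, at -0.29 with an adjusted p of 0.061. CYP1A1 had 1.62 (95% interval 0.42 to 2.83, adjusted p = 0.094) and did not pass. Without replicate 2 of vehicle-treated USP18 cells it did, at 2.30 with an adjusted p of 0.026 by edgeR. For CP18, 0 of 8 rows passed at 2.5 µM, an interaction also added after seeing the data, beside 0.0297% of all genes, and 0 of 8 at 5 µM beside 0.719%, with 2 and 3 rows at an unadjusted p under 0.05 by edgeR and 0 and 0 by DESeq2. At either dose DESeq2 gave no adjusted p for 3 of the 8 rows. The interaction of CP18 in CYP1A1 was 1.32 (95% interval 0.09 to 2.55, adjusted p = 0.74) at 2.5 µM and 1.29 (95% interval 0.08 to 2.505, adjusted p = 0.43) at 5 µM.

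**Figure D4:**
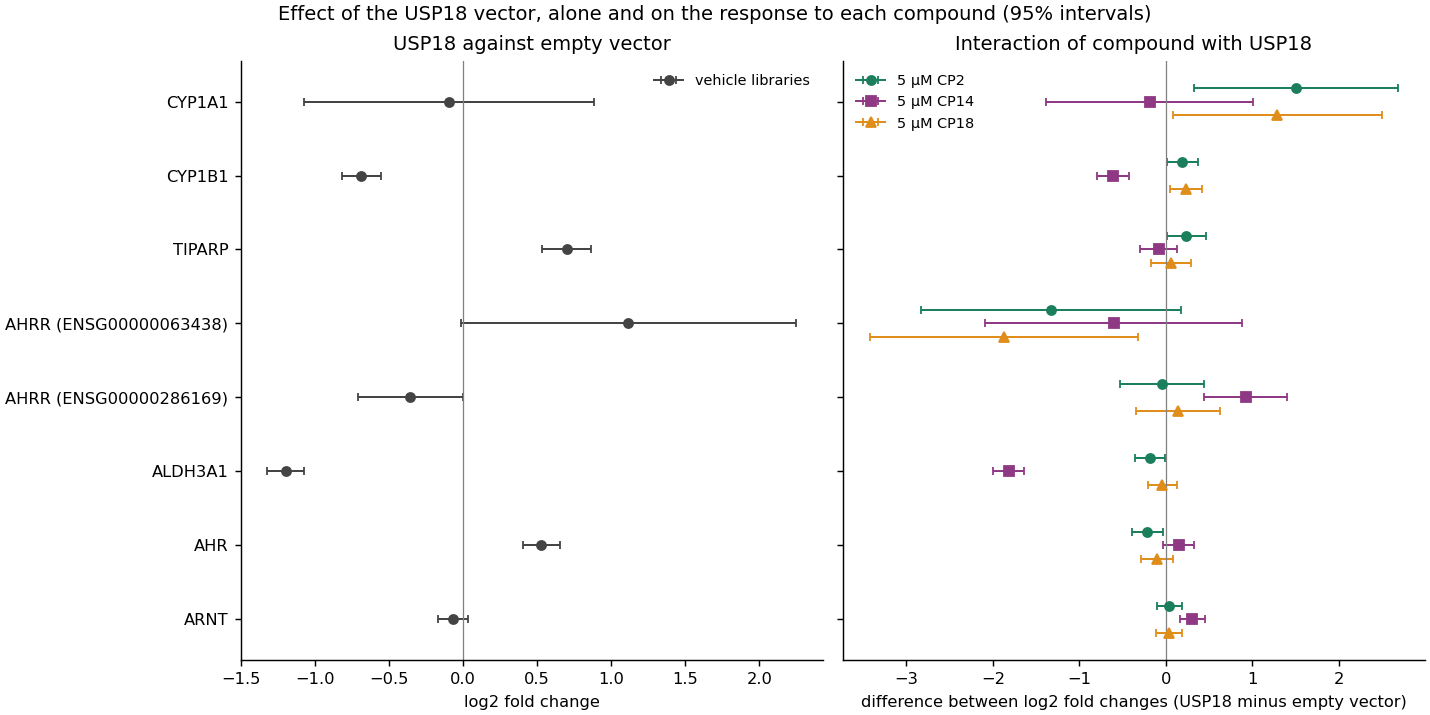
Left, log2 fold change of USP18 against empty vector cells with vehicle for each gene row; right, interaction of each compound at 5 µM with the vector, as the log2 fold change in USP18 cells minus that in empty vector cells; bars are 95% intervals. ALDH3A1 was at -1.20 between the vectors and -1.82 for CP14 with narrow intervals, while the intervals of CYP1A1 and of the AHRR row of ENSG00000063438.17, at -1.88 for CP18, were wide.

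Among themselves the genes did not follow 1 pattern over the 18 group means, which share vehicle groups and vectors. Pearson's r of log2 levels was 0.81 between CYP1A1 and TIPARP, 0.30 between CYP1A1 and CYP1B1, -0.38 between CYP1A1 and ALDH3A1 and -0.17 between CYP1A1 and AHR. It was -0.87 between CYP1B1 and AHR and -0.81 between TIPARP and ALDH3A1, and -0.03 between CYP1B1 and TIPARP. Of 14987 genes compared with CYP1A1 over the same 18 means, the 5 most alike were PUS1 (r = 0.95), CMTM3 (0.90), UBXN2A (0.88), WDR75 (0.87) and TTC26 (0.85). PUS1 ran from 43 CPM with 1 µM CP14 in empty vector cells to 61.2 CPM with 5 µM CP2 in USP18 cells, the same lowest and highest group as CYP1A1 over a far narrower range. These values are descriptions of 18 points, and nothing is said of shared control.

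Beyond the 7 genes, a list of 13 other genes taken as targets of the receptor was read from the same fit. Of these, 10 passed the filter on low counts (CYP1A2, SERPINB2 and IL1B did not). Whether the receptor acts on them in these cells was not tested. This list and those that follow were chosen with earlier results of these data known, so their p-values are not independent of that choice. With 5 µM CP2, 0 of 10 were called in either vector by edgeR (all genes 0.386% and 0.814%), with 4 and 6 at an unadjusted p under 0.05 and 0 and 0 by DESeq2, and the median log2 fold change was 0.02 in empty vector and 0.07 in USP18 cells beside a median of all genes within 0.01 of 0. With 5 µM CP18, 0 of 10 were called as well (all genes 0.44% and 0.558%), with 3 and 7 at an unadjusted p under 0.05 and 0 and 0 by DESeq2, and the medians were 0.07 and 0.14. With 5 µM CP14, 4 of 10 were called in empty vector cells, 2 up and 2 down, beside 13.9% of all genes, and 5 of 10 in USP18 cells, 2 up and 3 down, beside 17.7%, with medians of -0.44 and -0.19. STC2, a secreted glycoprotein of the stress response, rose from 33.2 ± 3.62 to 311 ± 11.4 CPM (SD, n = 3) in empty vector cells, by 3.22 (SE 0.10, adjusted p = 6.4e-32) by edgeR. EREG, a ligand of the epidermal growth factor receptor, rose by 2.52 (SE 0.084, adjusted p = 4.8e-30) by edgeR in empty vector cells and by 2.69 in USP18 cells. UGT1A1 and UGT1A6, which conjugate glucuronic acid to drugs and bilirubin, fell by 2.77 and 1.59 on the log2 scale in empty vector cells, but the genes of this family share their last exons, so their split is uncertain. NQO1, a quinone reductase, fell by 0.57 (SE 0.026, adjusted p = 1.5e-24) in empty vector cells, under the fold limit, and by 1.15 (SE 0.027, adjusted p = 1.6e-36) in USP18 cells by edgeR.

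In USP18 cells the same list gave 3.46 for STC2, -3.27 for UGT1A1 and -2.89 for UGT1A6 with 5 µM CP14. Directly, 5 µM CP2 against 5 µM CP14 called 4 of 10 in empty vector cells, beside 12.2% of all genes, and 6 of 10 in USP18 cells, beside 17.5%, and ABCG2, a drug efflux pump, was the gene added to the other 5, at 1.05 (0.95 to 1.15), with 0.81 (0.71 to 0.90) in empty vector cells, under the fold limit. CP2 against CP18 called 0 of 10 in either vector by edgeR (all genes 0% and 0%), with 2 and 3 at an unadjusted p under 0.05 and 0 and 0 by DESeq2. Between the vectors with vehicle 4 of 10 passed, beside 10.6% of all genes: SLC7A5, an amino acid transporter, at -2.04, UGT1A6 at -2.09, UGT1A1 at -1.56 and EREG at 1.01, with adjusted p-values of 1.3e-07 or less by edgeR. The list's median there was -0.49 beside -0.01 for all genes. The interaction of 5 µM CP14 passed for 5 of 10, 3 up and 2 down, beside 26.4% of all genes, among them NQO1 at -0.58 (95% interval -0.65 to -0.50, adjusted p = 3.1e-17) by edgeR.

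**Figure D5:**
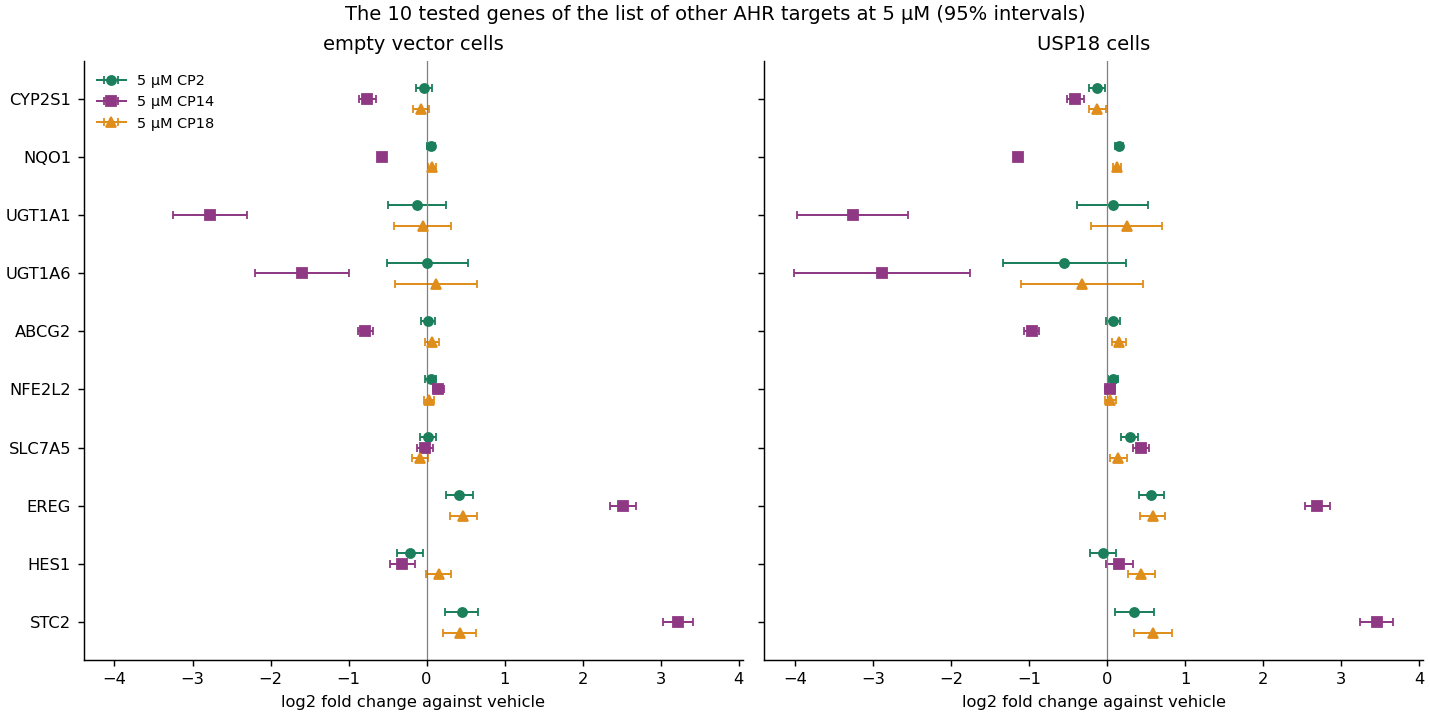
Log2 fold change against vehicle (horizontal axis) at 5 µM of CP2 (circles), CP14 (squares) and CP18 (triangles). The 10 tested genes of the list of other genes taken as receptor targets are on the vertical axis. Empty vector cells are on the left and USP18 cells on the right. Bars are 95% intervals from 3 against 3 libraries. CP2 and CP18 lay near 0 for most genes, while with CP14 STC2 stood at 3.22 and 3.46 and UGT1A1 at -2.77 and -3.27.

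Genes of the cytosolic receptor complex were read as well, among them the chaperones HSP90AA1 and HSP90AB1, their cofactor PTGES3, and ARNT2, the relative of ARNT. With 5 µM CP2 and with 5 µM CP18, HSP90AA1, HSP90AB1 and PTGES3 passed the adjusted p with small rises in both vectors, as did 1992 and 3160 of all 16836 genes in either direction with CP2 and 2188 and 2569 with CP18. HSP90AA1 with CP2 rose by 0.35 (SE 0.044, adjusted p = 8e-08) in empty vector cells and by 0.46 (SE 0.044, adjusted p = 2.4e-11) in USP18 cells, both by edgeR. With 5 µM CP14 the same gene fell, to -0.75 (SE 0.044, adjusted p = 2.5e-20) and -0.94 (SE 0.044, adjusted p = 4.2e-24), in the same order. ARNT2 rose with 5 µM CP14 in both vectors, by 0.89 (SE 0.06, adjusted p = 5.8e-18) in empty vector cells, under the fold limit, and by 1.002 (SE 0.064, adjusted p = 3.8e-19) in USP18 cells, just over it, and its interaction of 0.12 (95% interval -0.06 to 0.29, adjusted p = 0.37) did not pass. Of the 5 tested genes of the complex, 3 did pass the interaction of 5 µM CP14 by edgeR and 3 by DESeq2, beside 26.4% of all genes. Directly, HSP90AA1 was higher with CP2 than with CP14 by 1.102 (1.01 to 1.19) and 1.39 (1.302 to 1.48), and ARNT2 was at -1.004 (-1.13 to -0.88) and -0.84 (-0.97 to -0.71). CP2 against CP18 gave -0.02 (-0.11 to 0.07) and 0.01 (-0.08 to 0.10) for HSP90AA1. Of the 3 enzymes whose tryptophan products bind the receptor, TDO2 and IL4I1 were tested and IDO1 was not, and 0 of 2 were called by edgeR with any compound at 5 µM, beside shares of all genes from 0.386% to 17.7%, with 0 at an unadjusted p under 0.05 and 0 by DESeq2, which gave no adjusted p for 1 or both of them with CP2 and CP18.

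ARNT also pairs with the hypoxia-inducible factors, and 6 genes of that pathway were read for this reason. Of these, 0 of 6 with 5 µM CP2 were called by edgeR in either vector (3 and 4 unadjusted, 0 and 0 by DESeq2), as with CP18 (4 and 4 unadjusted, 0 and 0 by DESeq2), and with 5 µM CP14 2 of 6 in empty vector cells, beside 13.9% of all genes, and 4 of 6 in USP18 cells, beside 17.7%. The shares of all genes called with 5 µM CP2 were 0.386% and 0.814%, and with CP18 0.44% and 0.558%. CA9, a carbonic anhydrase, fell with CP14, to -3.55 (SE 0.23, adjusted p = 1.3e-18) in cells with the empty vector and -4.64 (SE 0.31, adjusted p = 1.3e-18) in USP18 cells by edgeR. EGLN3, an oxygen-sensing hydroxylase, was at -1.43 and -2.46, while EPAS1 and NDRG1 rose in both vectors, by 0.45 and 0.52 in empty vector cells, under the fold limit, and in USP18 cells by 1.02 and 1.05.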

How the data were processed

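The values are the expected counts per gene that the authors deposited for 54 libraries, and every column of the count table was matched to a label, with 0 left over. The submitters' notes give trimming with cutadapt 1.18, alignment with STAR 2.7.0f and quantification with RSEM 1.3.1. The study's methods give another RSEM version. They name a human annotation for the mapping and a mouse annotation for the quantification, although the gene identifiers are human. Expected counts were rounded. Low counts were removed by edgeR's filter (count 10, total 15), libraries were scaled by TMM, and log levels used a prior count of 2. 1 quasi-likelihood model with 18 groups was fitted in edgeR 4.0.16 (limma 3.58.1, R 4.3.3), and DESeq2 1.42.0 was the other tool. A call is an adjusted p under 0.05 (Benjamini-Hochberg over all tested genes) with an absolute log2 fold change over 1, and an interaction is counted at any size. Gene positions came from GENCODE 44. Genes were taken by symbol. The 7 genes and the other lists were chosen with earlier results of these data known. Results of 1 further gene list were left out, and those of another are given by gene. Alternatives tried were other scaling, filters, tool, replicate number as a block, only the groups compared, a rule without a fold limit, the AHRR rows summed, and each library left out in turn.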

Additional observations from a re-analysis of the deposited data

Results flagged for a closer look

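In 4 gene rows the effect of 5 µM CP14 differed between the vectors at an adjusted p under 0.05 by edgeR, and in AHR only at 2.5 µM. Of all genes, 26.4% passed at 5 µM and 7.3% at 2.5 µM (1229 genes, and 735 without replicate 1 of USP18 cells with 2.5 µM CP14). The p-values come from libraries used in choosing the genes, so they are not independent of that choice and are descriptions. The interaction is the log2 fold change in USP18 cells minus that in empty vector cells. At 5 µM it was -1.82 in ALDH3A1 (adjusted p = 4.6e-21), -0.61 in CYP1B1 (adjusted p = 7e-07), 0.31 in ARNT (adjusted p = 0.00083) and 0.92 in the AHRR row of ENSG00000286169.1 (adjusted p = 0.0025). The contrast at 2.5 µM was added after the levels of CYP1B1 there had been seen, so its 0.60 in CYP1B1 is a description. In AHR it was -0.34 (adjusted p = 0.0099), and -0.29 (adjusted p = 0.061) without replicate 1 of USP18 cells with 2.5 µM CP14. At 5 µM it was 0.15 in AHR (adjusted p = 0.23), of the opposite sign, and did not pass.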

How the results depend on the processing

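Without the limit on fold change, the rows of the 7 genes called rose to 2 of 8 with 2 µM CP2 in either vector, and with 5 µM CP2 to 6 in empty vector and 5 in USP18 cells. With CP14 that rule gave 4 at 1 µM in USP18 cells, 2 and 4 at 2.5 µM, and 5 and 7 at 5 µM. With CP18 it gave 1 at 1 µM in USP18 cells, 3 and 5 at 2.5 µM, and 5 and 6 at 5 µM. CP2 against CP14 at 5 µM gave 3 and 7, and USP18 against empty vector with vehicle gave 4. Of all 16836 genes, the same rule gave 1992 and 3160 with 5 µM CP2, 2230 and 4994 with 2.5 µM CP14, 10245 and 11051 with 5 µM CP14, 2188 and 2569 with 5 µM CP18, 9879 and 11122 for CP2 against CP14, and 8620 between the vectors. It gave 94 and 73 with 2 µM CP2, and 530 and 1657 with 2.5 µM CP18. With 1 µM CP14 the rule gave 34 in empty vector and 1778 in USP18 cells, and with 1 µM CP18 it gave 0 and 1987. Of the other targets at 5 µM, it gave 2 and 4 with CP2, 9 and 8 with CP14, and 2 and 5 with CP18.

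With at least 10 counts in every library CYP1A1 was not tested, and the count was 0 with 5 µM CP2 and with 5 µM CP18 in both vectors, and 0 in USP18 cells with 1 µM CP14, 2.5 µM CP14 and 2.5 µM CP18. For CP2 against CP14 in USP18 cells it was 1, and of the other targets 2 and 3 were called with 5 µM CP14, since fewer genes were tested. DESeq2 called 0 with 5 µM CP2 and 5 µM CP18 in both vectors, and 0 in USP18 cells with 1 µM CP14 and 2.5 µM CP18. Its independent filtering left CYP1A1 without an adjusted p in 15 of 27 comparisons, so these are not calls lost on a test. Fitted with only the groups compared, the count was 0 with 1 µM CP14 in USP18 cells and 0 with 5 µM CP18 in empty vector cells. With no filter beyond a count above 0 it was 0 for 5 µM CP18 in empty vector cells and 1 for the interaction of 5 µM CP18, and the cause was not tested. When the 2 AHRR rows were summed, a choice made after seeing the data, the interaction of 5 µM CP14 was 0.79 (adjusted p = 0.0048 by edgeR). Alone, the row of ENSG00000286169.1, which held most of the counts, had 0.92. The row of ENSG00000063438.17, near the limit of detection, had -0.60 (95% interval -2.09 to 0.89).

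With 1 library left out at a time, the count of the 8 rows ran from 0 to 1 with 2 µM CP2 in USP18 cells, from 1 to 2 with 5 µM CP2 in empty vector cells, from 0 to 1 with 1 µM CP14 in USP18 cells, from 0 to 1 with 1 µM CP18 in USP18 cells and from 0 to 1 with 5 µM CP18 in empty vector cells. With 5 µM CP14 it ran from 2 to 4 in empty vector and from 3 to 4 in USP18 cells, and for CP2 against CP14 from 1 to 2 in either vector. It ran from 1 to 2 for USP18 against empty vector and from 1 to 3 for the interaction of 2.5 µM CP14. CYP1A1 with 5 µM CP18 in empty vector cells lost its call without replicate 1 (1.095), 2 (1.31) or 3 (1.297) of vehicle, or replicate 1 (0.97) or 3 (1.28) of CP18. CYP1A1 with 1 µM CP14 in USP18 cells lost it without replicate 1 (1.31) or 3 (1.178) of vehicle, or replicate 1 (1.17) or 2 (1.32) of CP14. CYP1A1 gained a call without replicate 2 of vehicle-treated USP18 cells, with 2 µM CP2 (2.27), 1 µM CP18 (1.82) and in the interaction of 2.5 µM CP14 (2.30), this being the vehicle library of that vector with the most CYP1A1 counts, and in CP2 against CP14 it lost it without replicate 2 of 5 µM CP14 (0.93). CYP1B1 with 5 µM CP14 in empty vector cells lost it without replicate 2 of vehicle (0.99), and the AHRR row of ENSG00000286169.1 in USP18 cells without replicate 1 or 2 of vehicle (0.98). TIPARP in CP2 against CP14 gained a call in empty vector cells without replicate 1 (-1.03) or 2 (-1.04) of CP2 or 3 (-1.01) of CP14. The AHRR row of ENSG00000063438.17 gained calls without replicate 3 of vehicle-treated empty vector cells, between the vectors (1.92) and at 5 µM (2.11 with CP2, 1.91 with CP14, 2.17 with CP18), and with CP14 also without its replicate 1 (1.40).

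The counts over all genes moved more. With the fold limit kept and all libraries in, they were 65 (9 to 115 under the other alternatives) with 5 µM CP2 in empty vector cells and 137 (40 to 200) in USP18 cells, 2338 (1264 to 2551) and 2988 (1746 to 3252) with 5 µM CP14, 74 (14 to 135) and 94 (20 to 142) with 5 µM CP18, and 1790 (765 to 1923) for USP18 against empty vector. With 1 library left out, those of empty vector cells ran from 35 to 74 with 5 µM CP2 and from 29 to 91 with 5 µM CP18. They ran from 1 to 38 with 2.5 µM CP18 in empty vector cells, and from 36 to 64 with 1 µM CP14 in USP18 cells. A count was taken as moved if it changed by over 1.5 times, or to or from 0. The filter of at least 10 counts moved 17 of 27 such counts, DESeq2 12, no filter 18, only the groups compared 11, and leaving out 1 library 14. Same-numbered replicates did not deviate together: the correlations of their deviations ran from -0.12 to 0.06 with a median of -0.01, and in 0 of 17 comparisons was each above 0.1. With replicate number as a block, 1 of 27 counts over all genes moved by that measure and no count of the 8 rows changed, and the interaction of 5 µM CP14 had 4450 genes against 4447. CYP1A1 at 3 to 70 counts in a library limits every statement on it, as do 3 libraries per group and 1 engineered population per vector.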
